A study of Mus musculus with 52 samples.

Results

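The Western diet was examined in the frontal cortex of female mice of 1 APOE genotype, 8 APP/E3 females on the high-fat Western diet (HFD) and 7 APP/E3 females on normal diet (ND). They were picked by the genotype, diet and gender labels and make up 15 of the 52 libraries of the series. Both groups carried the APP/PS1ΔE9 transgenes, which give amyloid plaques in the brain, and both had human APOE3 in place of mouse Apoe on both chromosomes, so that neither group was free of amyloid or held mouse Apoe. The HFD drew 40% of its calories from fat, given as corn oil and anhydrous milk fat, with carbohydrate at 42.6% and protein at 16.8%. The ND was a laboratory chow. The mean age was 3.5 months when feeding began and 14.7 months at the behavioural tests, and feeding lasted 3 months. The labels do not say how these ages fit together, do not give the age of each animal, and do not name the promoter of the transgenes. For comparison, 14 APP/E4 females, which carry human APOE4 instead, and 12 APP/E3 males on the same diets were also used.

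The brain makes its own cholesterol, because lipoproteins of the blood do not cross the blood-brain barrier. When sterols run low in a cell, the transcription factor SREBP2 is released from the endoplasmic reticulum and switches on the enzymes of cholesterol synthesis and the receptors for lipoprotein uptake. When sterols are plentiful, INSIG proteins hold its precursor back. APOE, secreted mainly by astrocytes, carries cholesterol to neurons, which take it up through receptors such as LRP1, and in plaque-bearing cortex microglia and astrocytes around the plaques take on activated states with their own marker genes.

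Counts per library ranged from 7.02 to 10.4 M in HFD females and from 7.09 to 12.2 M in ND females, and levels are given as CPM (counts per 1 M counts of the library after scaling). Xist, the RNA of the inactive X chromosome, lay at 571 to 941 CPM in HFD females and 479 to 762 CPM in ND females, and the Y-linked gene Ddx3y was at or under 0.729 CPM in all 15 libraries. Slc17a7, the vesicular glutamate transporter of cortical excitatory neurons, lay between 1193 and 1880 CPM throughout. The libraries fell into 2 classes by the reads of Csl, a citrate synthase-like gene. HFD females 4, 5 and 6 and ND females 1, 2, 3, 5 and 6 were high (13.1 to 18.2 CPM), while HFD females 1, 2, 3, 7 and 8 and ND females 4 and 7 were low (0.0952 to 1.14 CPM). The low class thus held 5 of 8 HFD and 2 of 7 ND females (Fisher's exact test, two-sided, p = 0.315), and its libraries were deeper, at 9.39 to 12.2 M counts against 7.02 to 8.59 M in the high class. Over all females of the series 3467 of 15195 genes differed between the classes (22.8%, edgeR adjusted p under 0.05), so the class was a term of the model. A log2 difference therefore compares the diets within classes and can depart from the raw ranges, and the main results are also given for each class alone. Within the low class 3 class-marking genes (Csl, Pgk1 and Gm6682) separated by diet in both genotypes without overlap. In the high class Pgk1 lay at 25.9 to 28.0 CPM in HFD females, under all ND females (highest 30.9 CPM), and Gm6682 at 43.1 to 46.7 CPM in HFD and 51.9 to 58.2 CPM in ND females, also without overlap, whereas Csl overlapped there, as did all 3 in APP/E4 females of that class. In both classes, diet and a further read class cannot be told apart. A further 4 libraries stood apart in other ways. HFD female 6 held 2712 CPM summed over the choroid plexus list, where no other library exceeded 56.8 CPM. ND female 5 held 324 CPM of blood genes, and ND females 1 and 4 held 45970 and 9181 CPM of Rn18s, the 18S ribosomal RNA. Results that rest on these libraries are given with and without them. Any fit without ND female 4, and so any without all 4, has ND female 7 as the only ND female of the low class.

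No gene passed an adjusted p of 0.05 between HFD and ND females in edgeR's quasi-likelihood test, with a smallest adjusted p of 0.187 for Rn18s. At an unadjusted p under 0.05, 884 of 15195 genes (5.82%) differed, of which 427 were higher (2.81%) and 457 lower (3.01%) in HFD females, and a test with no differences at all would give 759.8 on average. limma voom called 0 genes, with 815 (5.36%) at an unadjusted p under 0.05, and DESeq2 called 7 (0.0461%). These 7 were the haemoglobin genes Hba-a1, Hba-a2, Hbb-b1 and Hbb-bs, together with Gm6682 and Rn7sk, all lower, and the choroid plexus gene Ttr, which was higher. Differences were small: the median size of the log2 difference over all genes was 0.078, against a median standard error (SE) of 0.11, and 64 genes exceeded a log2 difference of 1. An unadjusted p under 0.05 is called the threshold in what follows. For list counts of the main test given without a share, the shares over all genes are those 2.81% higher and 3.01% lower. At any p, 7233 of the 15195 genes were higher and 7962 lower in HFD females. The account therefore describes levels and the direction of differences, and none of the genes named in it was called in the main test.

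Genes of cholesterol synthesis leaned lower in HFD females. Of the 24 measured members of the list, which holds the enzymes of the pathway with their regulators, 23 were lower in HFD females and 11 had an unadjusted p under 0.05, all lower, where 3.01% of all genes were lower at that threshold. The median log2 difference of the list was -0.18, while that of all genes was -0.0068. Insig1, which encodes the protein that retains the SREBP2 precursor and is itself a target of SREBP2, had the smallest p of the list. It lay at 41.6 CPM at the lowest, 68.8 at the median and 77.5 at the highest in HFD females, against 71.7, 76.7 and 86.5 CPM in ND females. The HFD females reached down to well under the ND range, and their upper values overlapped it. The log2 difference of Insig1 was -0.32 ± 0.087 (SE), with an edgeR unadjusted p of 0.000647 and an adjusted p of 0.447. Within the classes its groups did not overlap: the high class gave 41.6 to 64.6 CPM in HFD and 71.7 to 79.3 CPM in ND females, and the low class 68.3 to 77.5 CPM in HFD and 84.2 to 86.5 CPM in ND females. Of all genes, 4.27% in the high and 4.18% in the low class were lower without overlap.

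Promoter sequences show what several of these genes have in common outside the counts. Shown are the 250 bases before the transcription start of the 4 members with the smallest p that have an entry in the RefSeq promoter table of GRCm38.p6, each from 5′ to 3′ on the gene's strand. Capitals mark the CCAAT box, read as CCAAT or as ATTGG on the other strand, which the factor NF-Y binds and which often stands near SREBP2 sites in sterol genes. Insig1 lies at chr5:28071162-28071411 (plus strand), Msmo1 at chr8:64733579-64733828 (minus strand), Idi1 at chr13:8885356-8885605 (plus strand) and Hsd17b7 at chr1:169969206-169969455 (minus strand).
Insig1: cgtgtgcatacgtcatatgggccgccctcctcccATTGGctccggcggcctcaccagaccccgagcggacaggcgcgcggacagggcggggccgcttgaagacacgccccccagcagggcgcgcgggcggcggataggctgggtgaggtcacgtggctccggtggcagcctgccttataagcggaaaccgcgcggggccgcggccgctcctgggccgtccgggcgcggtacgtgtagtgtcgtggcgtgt
Msmo1: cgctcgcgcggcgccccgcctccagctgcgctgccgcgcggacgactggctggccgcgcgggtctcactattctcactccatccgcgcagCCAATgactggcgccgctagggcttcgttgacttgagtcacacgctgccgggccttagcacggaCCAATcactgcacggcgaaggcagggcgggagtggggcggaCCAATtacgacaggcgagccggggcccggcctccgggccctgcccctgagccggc
Idi1: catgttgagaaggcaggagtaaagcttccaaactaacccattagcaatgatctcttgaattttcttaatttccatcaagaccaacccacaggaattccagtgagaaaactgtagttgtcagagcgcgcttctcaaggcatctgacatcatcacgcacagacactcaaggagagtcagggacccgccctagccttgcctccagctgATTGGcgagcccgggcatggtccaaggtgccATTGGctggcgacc
Hsd17b7: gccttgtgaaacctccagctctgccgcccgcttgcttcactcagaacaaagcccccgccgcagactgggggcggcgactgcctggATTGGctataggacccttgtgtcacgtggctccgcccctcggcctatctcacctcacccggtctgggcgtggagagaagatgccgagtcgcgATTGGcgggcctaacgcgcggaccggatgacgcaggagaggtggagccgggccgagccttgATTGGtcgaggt
The window holds 1 CCAAT box in Insig1, 3 in Msmo1, 2 in Idi1 and 3 in Hsd17b7. Over windows from 250 bases before to 50 after the start, searched on both strands, 15 of the 16 list members with an entry held CCAAT (93.8%), as did 42.5% of 11655 tested genes with an entry and 37.4% of all 32851 promoters. The letters TCACNCCAC, a form of the sterol regulatory element, were in 0 of the 16 and in 1.38% of the tested genes and 1.24% of all promoters. The matches describe the windows alone.

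The members with an unadjusted p under 0.05 span the pathway from mevalonate to the last sterol steps. Besides Insig1 these 10 included Mvk and Mvd, which phosphorylate and decarboxylate mevalonate; Idi1, which isomerises the isoprenoid unit; Fdft1 and Sqle, which form and oxidise squalene; Msmo1, Nsdhl and Hsd17b7, which act on the sterol ring; and Srebf2, the gene of SREBP2 itself. Of these, all but Sqle were named after their values were seen. Sqle, which catalyses a rate-limiting step, lay at 63.6, 80.8 and 109.6 CPM (lowest, median, highest) in HFD females, against 82.5, 92.2 and 121 CPM in ND females. The groups overlapped, with the HFD values spread further down. Its log2 difference was -0.25 ± 0.087. Msmo1 lay at 79.1, 103 and 126.4 CPM in HFD females, against 92.1, 110.0 and 142.7 CPM in ND females, a log2 difference of -0.24 ± 0.084. Idi1 had 4.39, 5.42 and 8.61 CPM in HFD females, against 5.84, 8.30 and 12.5 CPM in ND females, a log2 difference of -0.34 ± 0.13. Here too the groups overlapped, and the HFD median lay under the lowest ND value for Sqle and Idi1 but not for Msmo1. The remaining log2 differences under the threshold ran from -0.29 for Mvd to -0.10 for Srebf2.

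The sterol list had a larger median difference in the libraries high in Csl reads than in those low in them, and the class difference itself had an unadjusted p under 0.05 for 2 of the 24 members, with log2 differences higher in the low class (background 3.8%). In the high class (3 HFD and 5 ND females) 23 of 24 members were lower, with a median log2 difference of -0.31. Of these, 17 had an unadjusted p under 0.05 (4.22% of all genes were lower at that threshold). Summed over the list, the HFD females of the class held 1166 CPM at the lowest and 1309 CPM at the median, and the ND females 1448 to 1731 CPM. All 3 HFD sums lay under the lowest ND sum. The groups did not overlap for 10 members in the high class, among 649 such genes in all that were lower (4.27%), among them Cyp51, Fdps, Hsd17b7, Insig1, Msmo1, Mvk, Nsdhl, Sqle and Stard4. In the low class (5 HFD and 2 ND females) 17 of 24 were lower, 2 at an unadjusted p under 0.05 (background 2.12%), the median was -0.065, and Insig1 was the 1 lower member without overlap (background 4.18%). No member was higher without overlap in either class, where 3.96% of all genes in the high and 4.33% in the low class were. The sums in the low class were 1439 to 1664 CPM in HFD and 1509 to 1708 CPM in ND females. In both classes 16 of 24 members were lower, as were 25.2% of 14823 genes fitted in both. The fit without the class term called 4 genes in all (0.0263%), 3 haemoglobin genes and Rn18s. In it the list median was -0.11 with 4 members at an unadjusted p under 0.05, all lower (background 2.32%), and without HFD female 6 and ND females 1, 4 and 5 it was -0.23 with 12 (background 2.71%).

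**Figure D1:**
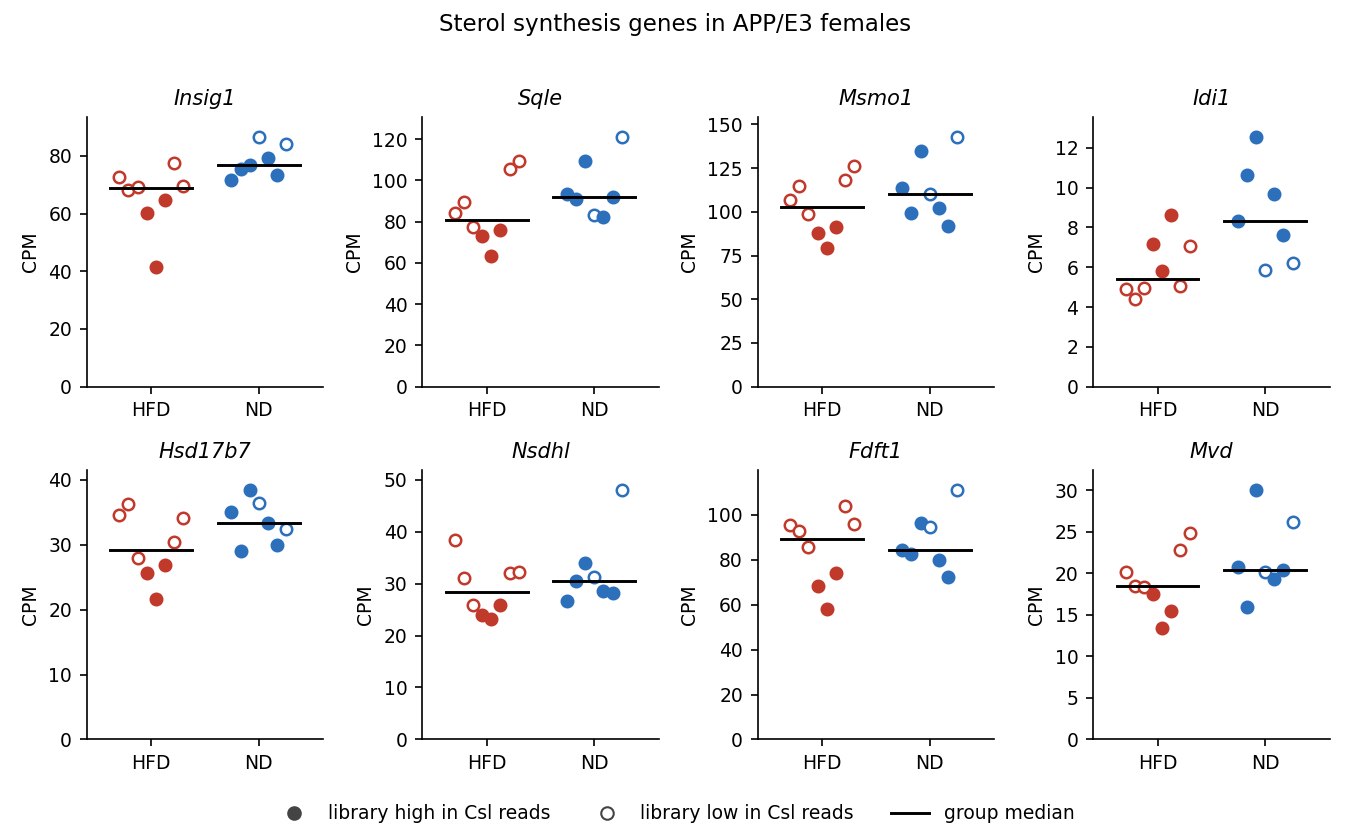
Levels (CPM, linear axes) of 8 genes of cholesterol synthesis and its regulation in each library, HFD females left and ND females right. Filled points are libraries high in Csl reads, open points those low in Csl reads, and bars are group medians. Filled HFD points of Insig1 (41.6 to 64.6 CPM) lie under all ND points, while for Idi1, Fdft1 and Mvd the diets overlap in both kinds of library.

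Other measures moved with the sterol genes inside the high class. Slc17a7 lay at 1193 to 1373 CPM in HFD and 1415 to 1880 CPM in ND females of that class, and 10 of 21 excitatory neuron genes were lower there at an unadjusted p under 0.05 (background 4.22%), with a list median of -0.24 and 8 of the 21 higher. The excitatory sum was 9111 to 9876 CPM in HFD and 9466 to 12240 CPM in ND females. The myelin sum ran the other way, at 4468 to 5248 CPM in HFD and 1744 to 4494 CPM in ND females, and the striatum sum was 2611 to 3655 CPM in HFD and 528.4 to 4130 CPM in ND females. In Pgk1 and Gm6682, which mark the Csl classes, the diets were also apart in this class. The part of these differences in the sterol result was not tested. In bulk tissue, fewer cells of a type and less RNA per cell cannot be told apart.

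The same list also lay lower on HFD in the other groups on the diet. In APP/E4 females 22 of 24 members were lower, 7 at an unadjusted p under 0.05 (background 3.88%), with a median of -0.13. In APP/E3 males 17 were lower, 3 at that threshold (background 8.41%), with a median of -0.064. No member of the list passed an adjusted p of 0.05 for a difference in diet effect from either group. At an unadjusted p under 0.05, 1 member was higher in APP/E3 females relative to APP/E4 females (background 3.13%), and 4 were lower relative to APP/E3 males (background 3.22%).

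Lrp1 and Abca1, genes of lipoprotein uptake and cholesterol export, were higher in HFD females at an unadjusted p under 0.05. Lrp1, an endocytic receptor for APOE and amyloid-β, lay at 384.7, 452.3 and 517.1 CPM (lowest, median, highest) in HFD females, against 263.4, 368.8 and 447.6 CPM in ND females. The HFD values overlapped the upper ND values, and within each class they did not overlap. Of all genes, 3.96% in the high and 4.33% in the low class were higher without overlap. Its log2 difference was 0.36 ± 0.10, with an edgeR unadjusted p of 0.00094 and an adjusted p of 0.495. Abca1, which loads cholesterol onto APOE, lay at 44.3, 53.9 and 90.1 CPM in HFD females, against 38.9, 48.8 and 67.6 CPM in ND females, a log2 difference of 0.48 ± 0.14. That difference was 0.76 in the high and 0.10 in the low class. Over the lipid transport and storage list 16 of 30 genes were higher, 2 of them (Lrp1 and Abca1) at an unadjusted p under 0.05 (background 2.81%), and the median was 0.013, and -0.020 without the class term.

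Insulin and IGF signalling, which couples nutrients to growth and glucose use, gave 18 of 27 genes higher with a median of 0.040. Igf1r, the receptor for IGF-1, lay at 69.7, 90.0 and 103 CPM in HFD females, against 55.7, 75.8 and 81.4 CPM in ND females, a log2 difference of 0.29 ± 0.091 (unadjusted p 0.00267). Insr, the insulin receptor, had 65.9, 71.9 and 78.3 CPM in HFD and 57.1, 67.7 and 69.3 CPM in ND females, a log2 difference of 0.18 ± 0.071. The groups overlapped for both genes, and the HFD median lay above the highest ND value. Foxo1 and Mtor were also higher at an unadjusted p under 0.05, which made 4 higher in the list (background 2.81%). The 1 lower at that threshold (background 3.01%) was Pdk1, a pyruvate dehydrogenase kinase, which acts in fuel use rather than in the insulin pathway. Fatty acid oxidation and fuel switching had 20 of 29 genes higher, 1 at that threshold (Acadm, a medium-chain acyl-CoA dehydrogenase), with a median of 0.035 that was -0.018 without the 4 libraries that stood apart.

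Sox11, a transcription factor of immature neurons, separated the diets in all 15 libraries. It lay at 19.4, 21.4 and 27.7 CPM in HFD females, against 7.17, 18.1 and 19.3 CPM in ND females, so that every HFD female lay above every ND female. Its log2 difference was 0.59 ± 0.15 (edgeR unadjusted p 0.000198, adjusted p 0.303), with 0.52 in the high and 0.78 in the low class, and it was 0.43 without ND female 4, the lowest library. Groups failed to overlap in 5 of 15195 genes with HFD higher (0.0329%) and in 0 with HFD lower. The other 4 were Fry, a large scaffold protein, Fzd3, a Wnt receptor of axon guidance, Ipmk, an inositol phosphate kinase, and the zinc-finger gene Zfp638, chosen here after their values were seen. Fry had 181.4, 191.1 and 202.7 CPM in HFD females and 128.7, 152.3 and 180.8 CPM in ND females, with a log2 difference of 0.32. Fzd3 had 162.0, 177.3 and 212.5 CPM in HFD females and 121.9, 150.6 and 160.4 CPM in ND females, with a difference of 0.27. For Ipmk and Zfp638 the log2 differences were 0.19 and 0.18. The gap between the groups was narrow in all 5 genes, with Sox11 at 19.4 CPM in the lowest HFD and 19.3 CPM in the highest ND female.

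The 12 genes with the smallest p among those higher in HFD females included several very large proteins of neurons and chromatin. Map2, the dendritic microtubule protein, lay at 865, 1024 and 1236 CPM in HFD females, against 727, 819 and 1009 CPM in ND females. Its log2 difference was 0.31 ± 0.077 (edgeR unadjusted p 0.000184, adjusted p 0.303), 0.40 in the high class and 0.18 in the low class. Kmt2a, a histone H3 lysine methyltransferase, had 150.8, 186.8 and 249.2 CPM in HFD females, against 117.3, 141.3 and 174.3 CPM in ND females, a log2 difference of 0.45 ± 0.12. Its relative Kmt2d differed by 0.39 ± 0.11. Trrap, the scaffold of histone acetyltransferase complexes, had 145.8, 167.9 and 180.8 CPM in HFD females, against 116.2, 136.9 and 150.8 CPM in ND females, a difference of 0.32 ± 0.083. The groups overlapped for all of these over 15 libraries. The ribosome assembly ATPase Mdn1 (0.46), the ubiquitin ligase Ubr4 (0.33), the protocadherin Dchs1 (0.41) and Wdr44 (0.27) completed the set with 1700001K19Rik, a transcript near the detection floor (1.04), and the pair F5 and Slc4a5. F5 and Slc4a5 rested on HFD female 6: F5 had 27.7 CPM there and at most 1.97 CPM in the other HFD females, and its log2 difference of 2.30 was 0.56 without that library. Slc4a5 had 19.7 CPM there and at most 0.389 CPM in the others, and its difference of 3.62 was 0.049 without the 4 libraries that stood apart.

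The 12 genes with the smallest p among those lower in HFD females were of 3 kinds. Bop1 and Surf6, nucleolar proteins of ribosome assembly, and Chgb, a protein of secretory granules, made up the first. Bop1 lay at 44.6, 48.6 and 53.2 CPM in HFD females, against 51.3, 56.6 and 62.8 CPM in ND females. The ranges overlapped at their edges over all libraries and not within either class, where 4.27% (high) and 4.18% (low) of all genes were lower without overlap. Its log2 difference was -0.24 ± 0.059 (edgeR unadjusted p 0.000138, adjusted p 0.303). Chgb lay at 387.4, 496.7 and 557.3 CPM in HFD females, against 456.3, 507.3 and 875.8 CPM in ND females, a difference of -0.34 ± 0.082 that was -0.21 without ND female 7, the highest library. Surf6 differed by -0.26 ± 0.065. Hapln4, a link protein of perineuronal nets, differed by -0.59 ± 0.16, with 218.1 CPM in ND female 4 and at most 121.4 CPM in the other ND females. A second kind had its highest values in 1 or 2 ND libraries. Rn18s lay at 835.7, 1194 and 2275 CPM in HFD females, against 863.9, 1273 and 45970 CPM in ND females, and its log2 difference of -2.92 ± 0.59 was -1.02 without ND female 1 and -0.21 without the 4 libraries that stood apart. Rn7sk, the 7SK small nuclear RNA, moved with it, at -2.16 in all libraries, -0.81 without ND female 1 and 0.16 without the 4. Hba-a1, a haemoglobin subunit, lay at 0.427, 1.25 and 1.83 CPM in HFD females, against 0.996, 3.45 and 134.6 CPM in ND females. Its difference of -3.65 was -1.92 without ND female 5, ND female 1 being next highest at 20.1 CPM, and Hba-a2, Hbb-b1 and Hbb-bs were also lower, although reads of their near-identical copies may not have been counted apart. The last kind, Gm6682 (-0.51) and the glycolytic gene Pgk1 (-0.32), belongs to the genes that mark the Csl classes.

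**Figure D2:**
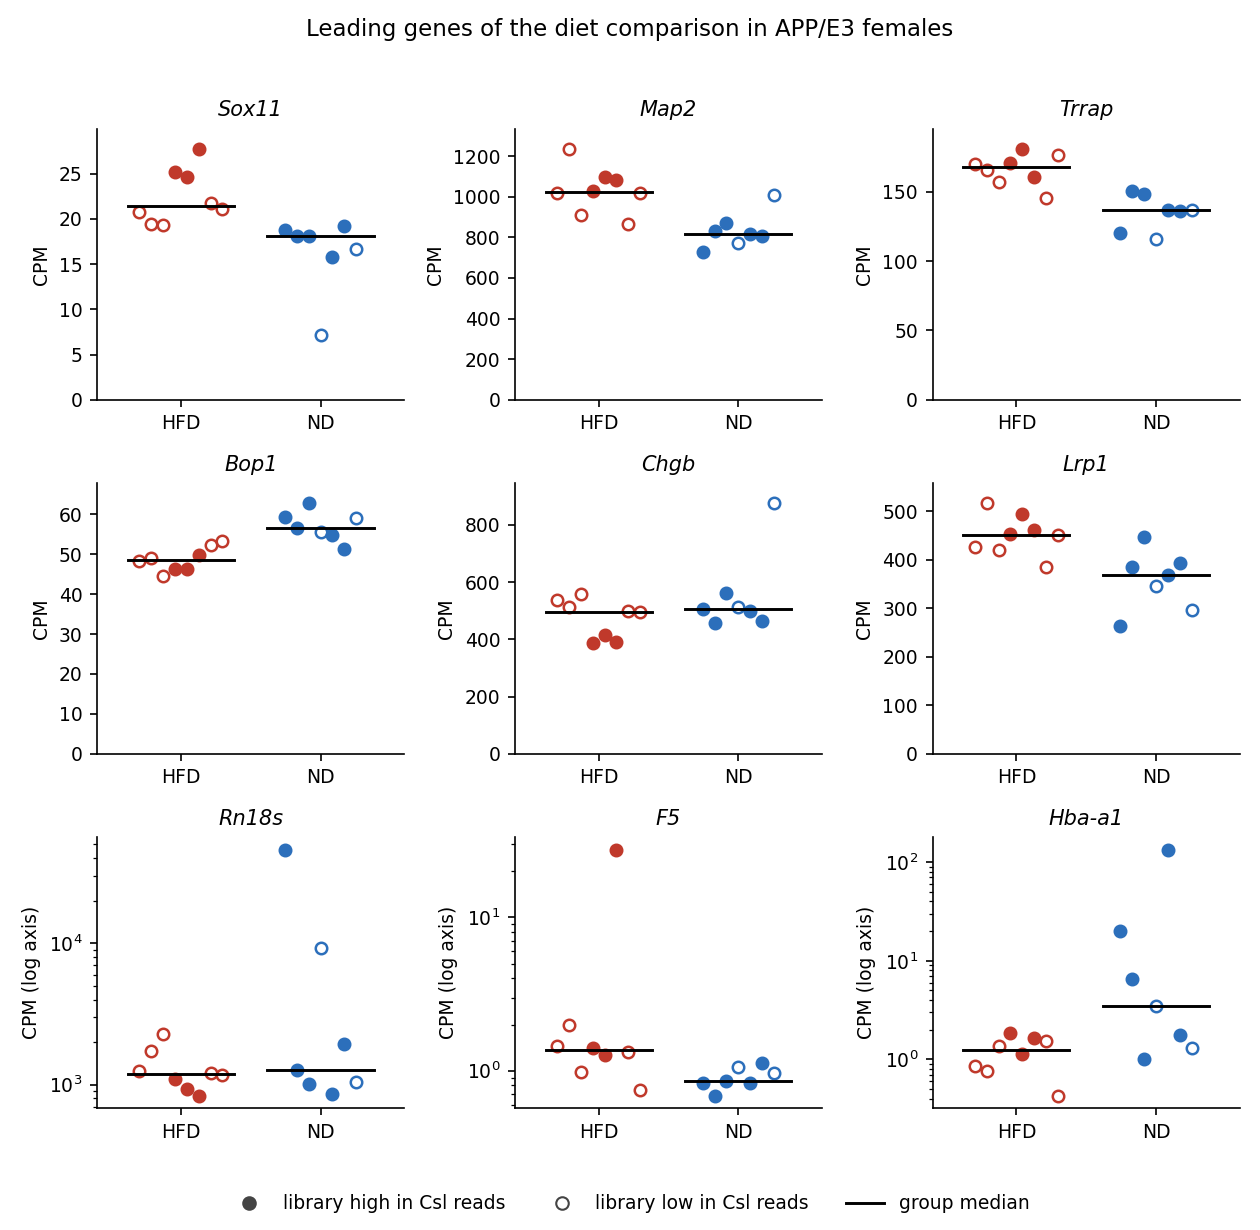
Levels (CPM) of 9 genes in each library, HFD females left and ND females right, with filled points for libraries high in Csl reads, open points for low, and bars at group medians. Sox11 (HFD 19.4 to 27.7 CPM, ND 7.17 to 19.3 CPM) separates the diets, while on the log axes Rn18s, F5 and Hba-a1 show 1 or 2 libraries far from the rest, up to 45970 CPM for Rn18s.

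Genes with long transcripts were more often higher in HFD females. With genes split into 5 equal parts by the longest annotated transcript, 38.3% of the shortest part (median 1506 nt) and 65.5% of the longest (median 6939 nt) had a positive log2 difference, and the median log2 differences were -0.030 and 0.044. The longest part also had the highest median within both classes (0.051 in the high class and 0.035 in the low class) and without the 4 libraries that stood apart (0.046). Genes higher at an unadjusted p under 0.05 had a median transcript of 6195 nt, those lower 2976 nt and all tested genes 3487 nt, and the 12 leading higher genes 9532 nt. For the 12 leading lower genes 9 had a length (75.0%), too few for the comparison. Per library the long-minus-short difference in log2 CPM was -0.26, 0.054 and 0.17 (lowest, median, highest) in HFD females and -0.23, -0.042 and 0.10 in ND females, with HFD female 1 and ND female 1 the lowest, so the groups overlapped widely. The part of transcript length in the single-gene results was not tested.

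**Figure D3:**
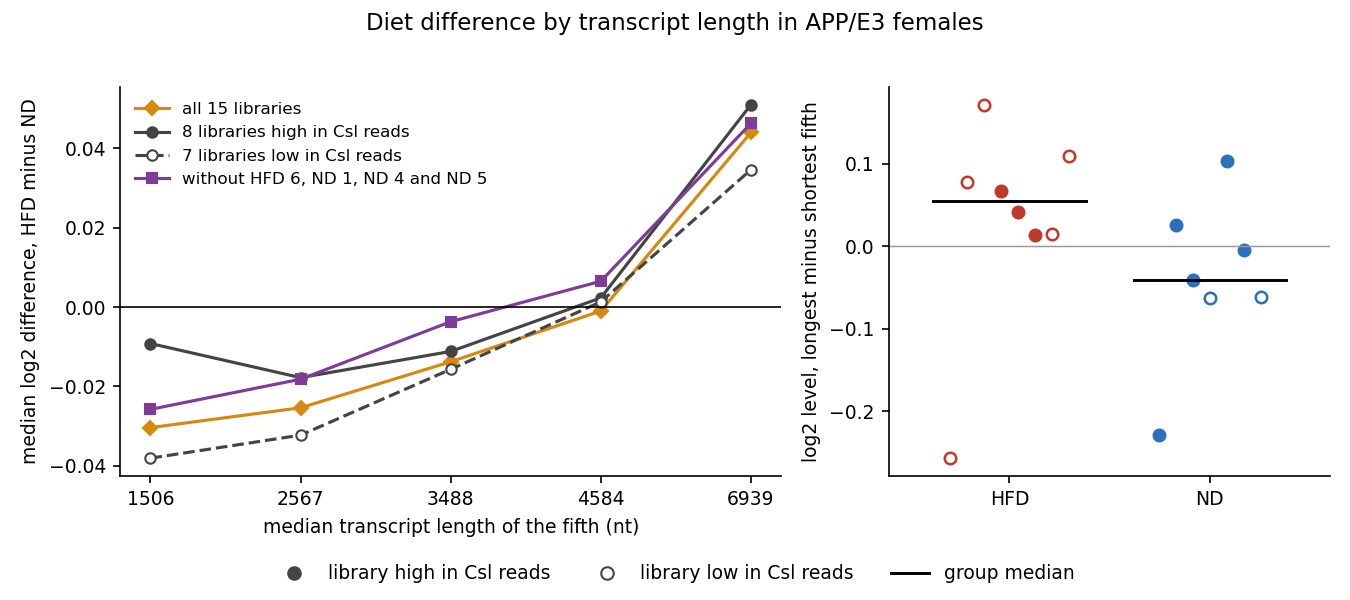
Left, median log2 difference of HFD against ND females by 5 equal parts of transcript length (nt), in all 15 libraries, within each Csl class and without the 4 libraries that stood apart. Right, for each library the median centred log2 level of the longest part minus that of the shortest, HFD left and ND right. The longest part lies above the shortest in all 4 lines of the left plot, and the libraries on the right overlap between diets (-0.26 to 0.17 in HFD, -0.23 to 0.10 in ND).

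Immune gene groups had median log2 differences between 0.022 and 0.12 over all 15 libraries. In the Tyrobp immune network, the microglial receptor-adaptor module that the study names, 36 of 44 genes were higher, with a median of 0.099. At an unadjusted p under 0.05, 1 was higher (Lair1, an inhibitory collagen receptor, 0.27), where 2.81% of all genes were. The median was 0.028 (28 of 44 higher) without the class term, 0.037 (29 of 44) without the 4 libraries that stood apart, and 0.049 and 0.054 without ND female 5 and HFD female 5. The study names Tyrobp as a hub from these same samples, so the list is not independent evidence of direction. The same list had 43 of 44 genes higher in APP/E4 females, 13 at that threshold (background 5.28%), with a median of 0.23, and 14 of 44 higher in APP/E3 males with a median of -0.0735. Plaque-associated microglia had 16 of 29 genes higher and 0 at the threshold in either direction, with a median of 0.022 that was -0.062 without HFD female 6 and ND female 5 and -0.0008 without the 4. In the high class 22 of 28 were higher (median 0.14), with 4 higher at the threshold (background 3.81%). In the low class 10 of 28 were higher (median -0.078), with 4 lower at the threshold (background 2.12%). Homeostatic microglia had 16 of 20 higher with a median of 0.074, which was 0.012 without the class term and 0.038 without the 4, and 1 lower at the threshold. Complement had 13 of 16 higher with a median of 0.059 and 1 lower at the threshold, and antigen presentation 10 of 18 with a median of 0.051, and both medians were below 0 without the 4 (-0.096 and -0.070) and without the class term (-0.022 and -0.084). These medians were above 0 in the high class (0.10 and 0.12) and below 0 in the low class (-0.081 and -0.11). Gpnmb, a lysosomal glycoprotein of plaque-associated microglia, had a log2 difference of -0.59 that was 0.024 without ND female 7.

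The interferon response list had 24 of 35 genes higher, 2 at an unadjusted p under 0.05 (Ifi27l2a, 0.70, and Oas2, 0.57, background 2.81%), with a median of 0.12. This median was 0.38 in the high class, with 33 genes higher and 9 at the threshold (background 3.81%), and -0.16 in the low class, with 8 of 34 higher. The difference between the classes had an unadjusted p under 0.05 for 13 of the 35, all lower in the low class (background 4.3%). The median over both classes was 0.019 (19 of 35 higher) without HFD female 6 and ND female 5, 0.27 (32 of 35) without ND females 1 and 4, 0.18 (30 of 35) without all 4, and 0.062 without the class term. Leaving out 1 library gave 0.026, without HFD female 5, to 0.28, without ND female 4. Reactive astrocyte genes had 7 of 18 higher with a median of -0.041, 1 higher and 2 lower at the threshold, and without the 4 the median was -0.30 with 3 of 18 higher. By class, 11 of 18 were higher in the high class (median 0.18) and 5 of 17 in the low class (median -0.21). Gfap, the intermediate filament of reactive astrocytes, lay at 114.2, 213.7 and 258.0 CPM in HFD females, against 154.7, 259.2 and 575.6 CPM in ND females. The highest HFD value lay just under the ND median, and the ranges overlapped. The log2 difference of Gfap, -0.54 ± 0.19 (edgeR unadjusted p 0.00697, adjusted p 0.739), was -0.0089 in the high and -1.18 in the low class, and it was -0.24 without ND female 7. Astrocyte identity genes had 11 of 21 higher with a median of 0.017, among them Slc1a3, a glutamate transporter (0.21), and Gpc5 (0.19), both at an unadjusted p under 0.05. In the high class 17 of the 21 were higher (median 0.14), 5 at the threshold (background 3.81%), and in the low class 4 (median -0.13), with 2 lower at the threshold (background 2.12%). The difference between the classes had an unadjusted p under 0.05 for 6 of the 21, all lower in the low class (background 4.3%).

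Lists of oligodendrocytes and neuronal activity also pointed opposite ways in the classes. Myelin genes had 1 of 21 higher over all libraries, at the threshold and with HFD female 6 far above the rest (Enpp2, an autotaxin also made by choroid plexus), with a median of -0.16. In the high class 20 of 21 were higher (median 0.29) and in the low class 0 of 21 (median -0.72), and the difference between the classes had an unadjusted p under 0.05 for 19 of the 21, all lower in the low class (background 4.3%). The low class held 2 ND females, and 1 of them, ND female 4, had the highest myelin sum, 7044 CPM, where the others reached at most 5248 CPM. Without the 4 libraries that stood apart the median over both classes was 0.075, with 16 of 21 higher. Oligodendrocyte precursors had 7 of 14 higher (median 0.010 in all libraries, 0.30 in the high class and -0.29 in the low class) with 2 higher at the threshold, Vcan and Ptprz1 (background 2.81%). Immediate early genes, switched on by neuronal firing, had 19 of 32 higher with a median of 0.023, and 1 lower at the threshold (Jun, -0.43). In the high class 0 of 32 were higher (median -0.27), while in the low class 28 were higher (median 0.62), 12 at an unadjusted p under 0.05 (background 2.42%). ND female 7, 1 of the 2 ND females of that class, had the lowest level of these genes of all 15 libraries, a median of -0.72 on the centred log2 scale. The difference between the classes had an unadjusted p under 0.05 for 14 of the 32, all higher in the low class (background 3.8%). No gene of these lists was called for that difference, which over all 15611 genes fitted was called for 2, Csl itself and Avp (0.0128%).

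**Figure D4:**
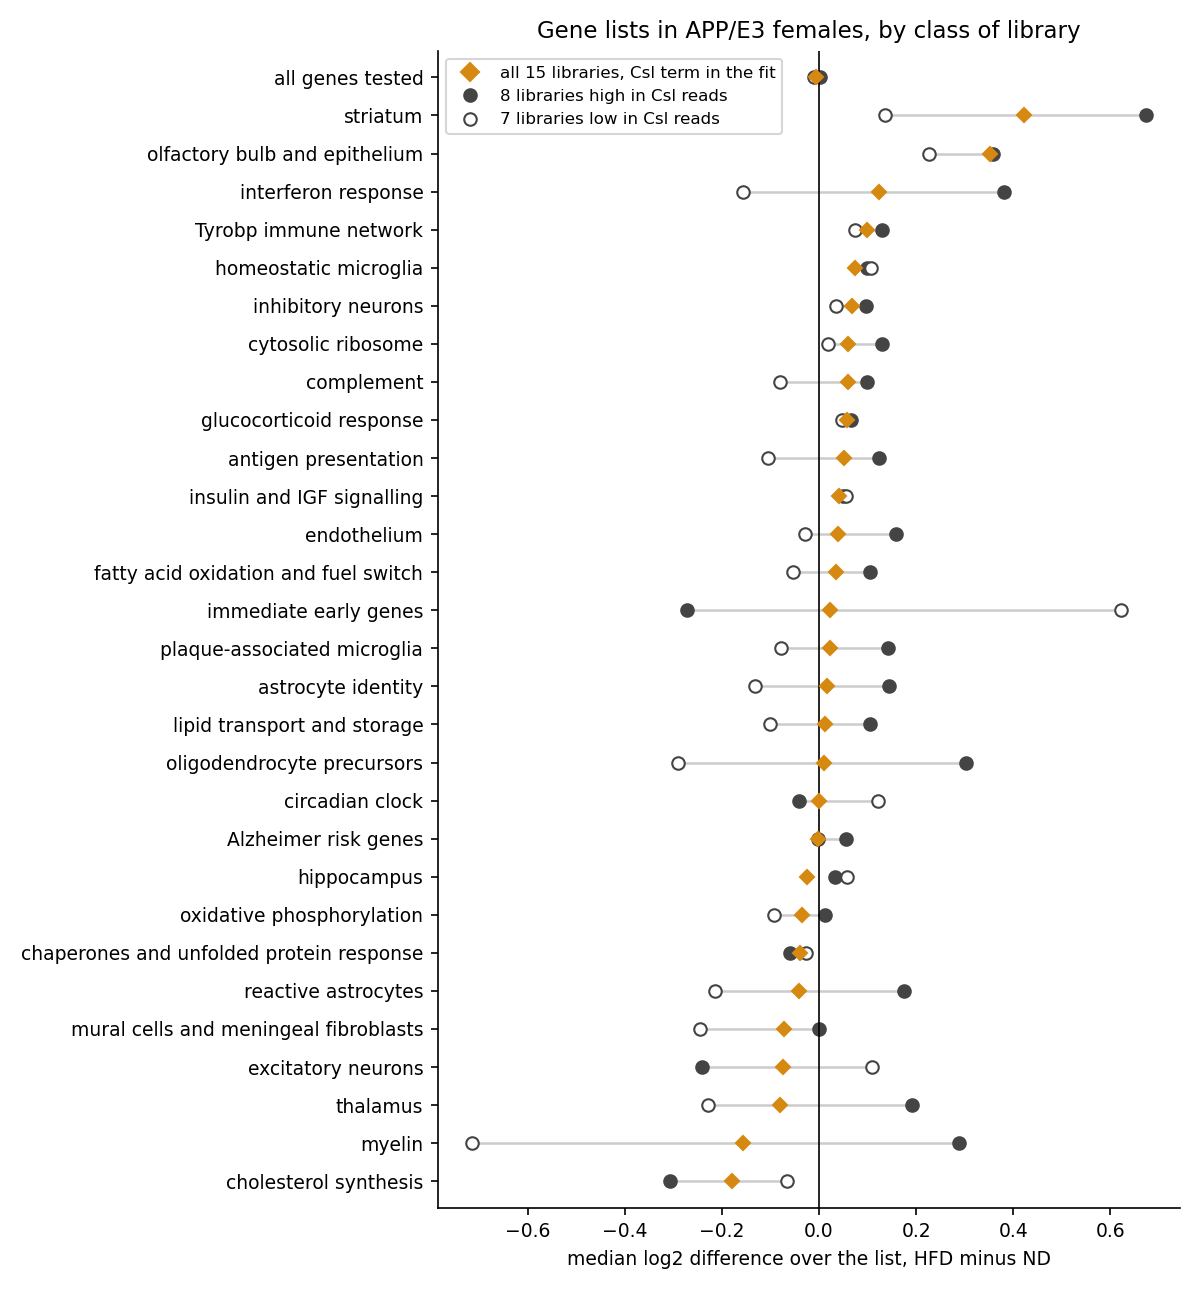
Median log2 difference of HFD against ND females for the gene lists and for all genes tested. Not drawn are choroid plexus, blood, the X-linked and Y-linked check and the engineered and matching loci. Diamonds are the fit to all 15 libraries with the Csl class as a term, filled points the 8 libraries high in Csl reads and open points the 7 low in Csl reads. Cholesterol synthesis lies below 0 in all 3 (-0.18, -0.31 and -0.065), whereas myelin and immediate early genes lie on opposite sides of 0 in the classes.

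Neuronal identity and other cell types gave no common direction. Excitatory neurons had 9 of 21 genes higher with a median of -0.074 and 1 lower at the threshold, Nrgn, a postsynaptic calmodulin-binding protein (-0.47). Inhibitory neurons had 12 of 20 higher with a median of 0.069 and 1 lower, the neuropeptide gene Npy (-0.32). Endothelium had 15 of 23 higher (median 0.038), 1 at the threshold. Without the class term the medians of these 3 lay on the other side of 0 (0.013 for excitatory neurons, -0.0002 for inhibitory neurons and -0.013 for endothelium). Mural cells with meningeal fibroblasts had 9 of 25 higher (median -0.072), 0 at the threshold. Without the 4 libraries that stood apart the mural and fibroblast list had 3 of 25 higher (median -0.45) and 7 lower at the threshold (background 2.71%), its median was -0.22 without the class term, and it was 0.027 without ND female 7. Among the lists of neighbouring brain tissue, striatum had 20 of 20 higher with a median of 0.42 and 1 at the threshold (Pdyn, an opioid peptide precursor, 0.74). The striatum median was 0.18 without the class term, with 17 of 20 higher, and ran from 0.20, without HFD female 1, to 0.75, without ND female 1. Olfactory bulb and epithelium had 14 of 17 higher (median 0.35), 0 at the threshold, and without the class term 7 of 17 with a median of -0.065. Hippocampus had 6 of 12 higher (median -0.026, and 0.049 without the class term), 2 higher and 1 lower at the threshold, and thalamus 5 of 12 (median -0.081), 0 at the threshold. The striatum sum was 466.2, 2088 and 3655 CPM in HFD females and 528.4, 1501 and 4130 CPM in ND females, so the ranges overlapped fully. Choroid plexus had 12 of 12 higher, 8 at the threshold (background 2.81%), with a median of 1.74. Without HFD female 6 and ND female 5 only 10 members passed the filter, 5 of them higher, with a median of 0.063. The high class alone gave 6 called genes (0.0394%), Folr1, Kl, F5, Slc4a5, Cldn2 and Ttr, all members of this list. Blood had 1 of 8 higher, 5 lower at the threshold (background 3.01%), with a median of -2.68 that was -0.88 with 0 at the threshold without the 4 libraries.

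**Figure D5:**
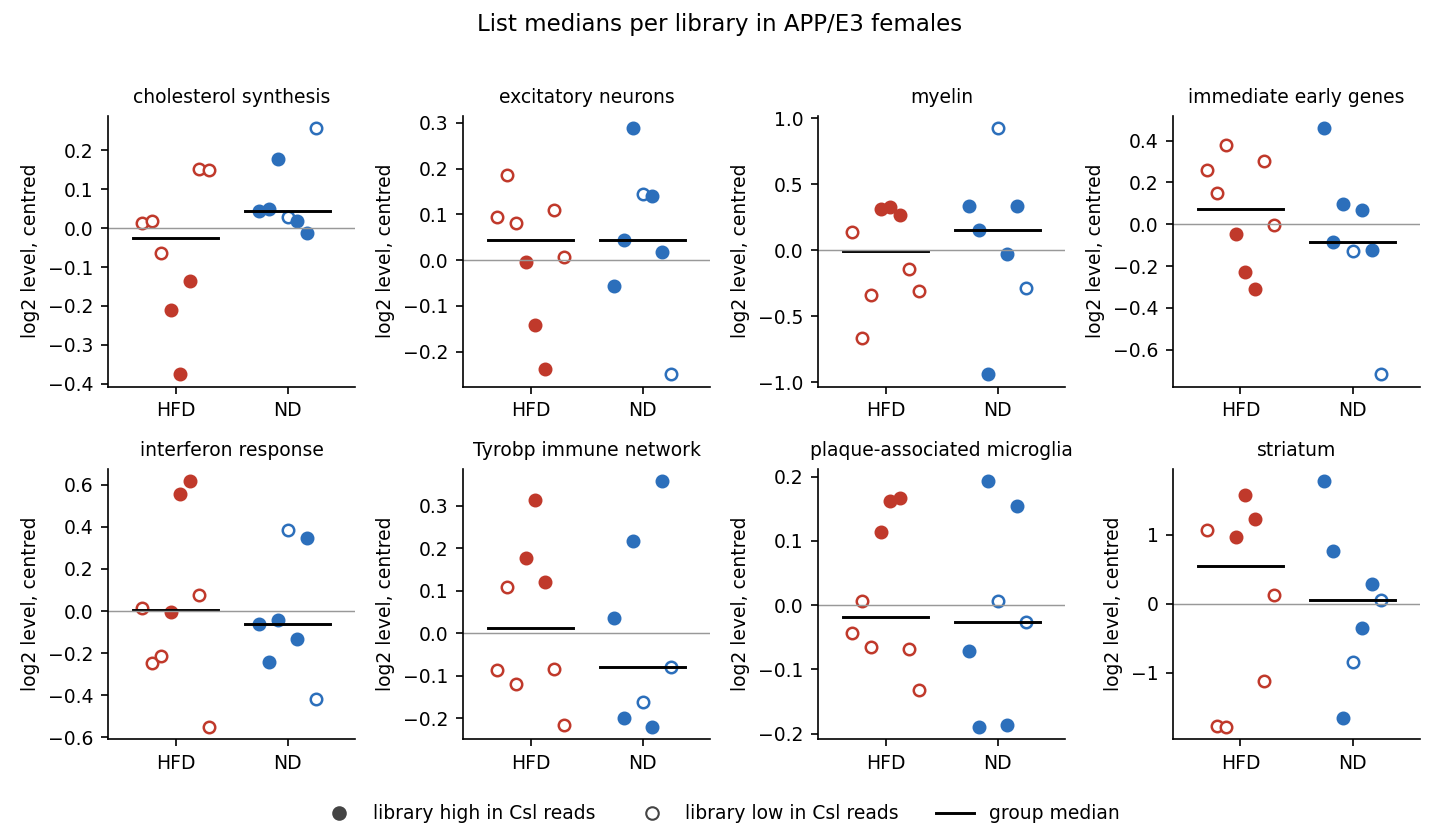
Median over each of 8 gene lists of the log2 CPM relative to the mean over libraries, per library, HFD females left and ND females right; filled points are high and open points low in Csl reads. For cholesterol synthesis the filled HFD points lie lowest, and for immediate early genes ND female 7 lies lowest of all 15 libraries.

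General cell functions had medians close to 0 in the main test. Cytosolic ribosome genes had 45 of 73 higher (median 0.059), 1 higher and 2 lower at the threshold, and oxidative phosphorylation 12 of 64 (median -0.035), 1 lower at the threshold. Without the class term 54 of the 73 ribosome genes were higher (median 0.11), 10 higher and 1 lower at the threshold, against 361 of all 15195 genes higher. The diet difference of APP/E3 females minus that of APP/E3 males was above 0 for 63 of the 73 (median 0.25). Of these, 34 were at the threshold, against 559 of all 15195 genes. In the males alone 3 of 73 were higher (median -0.24). Glucocorticoid response had 14 of 23 higher (median 0.058), 1 at the threshold, and the circadian clock 12 of 23 (median 0.0004), 1 lower at the threshold. Chaperones and the unfolded protein response had 11 of 40 higher with a median of -0.039 that was 0.015 without the class term. At an unadjusted p under 0.05, 4 were lower (background 3.01%), among them the heat shock gene Hspa1b (-0.67 ± 0.22). Alzheimer risk genes had 14 of 32 higher with a median of -0.0031 and 2 lower at the threshold. The X-linked and Y-linked check had 5 of 9 higher (median 0.012), 1 higher and 1 lower at the threshold. Of the engineered and matching loci 0 of 4 were higher, with a median of -0.084. App, counted with reads that the mouse gene and the transgene may share, lay at 3636, 4711 and 5491 CPM in HFD females, against 4194, 4679 and 5682 CPM in ND females. The ranges lay across each other, and the log2 difference was -0.15 ± 0.069 (edgeR unadjusted p 0.0321, adjusted p 0.852). Prnp differed by -0.082. Apoe lay at 17.4, 19.7 and 22.2 CPM in HFD females, against 19.2, 20.9 and 24.0 CPM in ND females (-0.086), in a table of mouse genes that does not separate the human APOE3 sequence.

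The diet difference of APP/E3 females was set against that of APP/E4 females and of APP/E3 males by interaction terms. Neither gave a called gene in edgeR: the smallest adjusted p was 0.809 for genotype, with 917 genes at an unadjusted p under 0.05 (6.03%), and 0.539 for sex, with 1048 (6.9%). limma voom also called 0 in both, with 894 genes at that threshold for genotype (5.88%) and 1018 for sex (6.7%). The 4 genes with the smallest p for genotype included 4931414P19Rik, with log2 differences on HFD of -0.31 in APP/E3 females and 0.43 in APP/E4 females, and Fam49a, a regulator of actin remodelling, with 0.19 in APP/E3 females and -0.22 in APP/E4 females. The other 2 were Rn18s and 1700001K19Rik. For sex they were Rps27rt, a ribosomal protein retrogene whose reads may be shared with its parent gene, with 0.24 in APP/E3 females and -0.29 in APP/E3 males, Vgll3, a transcription cofactor, with -0.85 in females and 0.63 in males, the mitochondrial gene ND1, with 0.15 in females and -0.39 in males, and Bpifb4, whose value of 26.2 CPM in HFD female 2 stood alone against at most 0.354 CPM in the other HFD females. Of the genes leading among APP/E3 females, Sox11 differed by -0.037 in APP/E4 females and Bop1 by 0.0004. Their unadjusted edgeR interaction p-values were 0.00413 and 0.00519 and did not pass the adjustment. Both genes were picked for a small p among APP/E3 females. The interaction holds that same difference, so its p-values are lowered by the choice and are no evidence that the genotypes differ.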

How the data were processed

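Frontal cortex mRNA of 15 APP/E3 females was compared by diet, in a model fitted to all 52 libraries. The authors deposited a table of raw read counts per gene, 15692 genes by ID and symbol. The submitters' processing notes name Subread, featureCounts, limma, edgeR 3.14.0 and genome build mm9, without order or settings. Which annotation and strand setting were used, and what was done with multi-mapping reads, is not given in the sources used, so near-identical copies and overlapping or antisense genes are uncertain. The authors' coefficients and p-values in the same table were not used. Spreadsheet dates stood in for 24 symbols, all restored through their IDs, and 15448 IDs were found in RefSeq (GRCm38.p6), used for names, chromosomes and promoters. Transcript lengths are the longest per gene in GENCODE M21, found for 93.8% of tested genes.

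In edgeR 4.0.16 (R 4.3.3), filterByExpr over the 8 groups removed 497 genes and left 15195. A robust quasi-likelihood fit on TMM-scaled counts had a mean for each group and a term for female libraries under 5 CPM of Csl, with Benjamini-Hochberg adjustment over all genes and calls at an adjusted p under 0.05. CPM use TMM-scaled totals, and log2 levels carry a prior count of 2. Each SE is the size of the log2 difference divided by the square root of the quasi-likelihood F statistic. Contrasts were HFD against ND and its interactions with APOE genotype among females and with sex among APP/E3. Alternatives used limma 3.58.1 (voom), DESeq2 1.42.0, RLE factors, no filter, other samples, no Csl term, and each library left out in turn. Totals of 7.02 to 12.2 M counts put 3 counts at 0.246 to 0.427 CPM, a floor that covers counting error only. Over 49 pairs within the HFD and the ND group of APP/E3 females the chi-square per gene was at least 3.06. No such pair thus differed by counting error alone, and pairs across groups were not compared. Replicate numbers follow deposit order, and nothing beyond the labels says that the libraries are independent animals, so p-values measure the spread between these libraries.

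The text names the 12 genes of smallest p in each direction at a mean of at least 1 CPM, 2 of smallest p in each of 33 gene lists (776 of 808 genes tested), the 4 of smallest p in each interaction, and App, Apoe and Prnp, with others where stated. Some genes are not reported here. The group compared, the lists and the rule were chosen with earlier results of these data known. Lists are described by counts and medians, with no test.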

Additional observations from a re-analysis of the deposited data

Results flagged for a closer look

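In groups of 7 or 8 libraries, 1 value was set apart when its gap to the nearest other exceeded a critical share of the group's range. For independent values of normal shape, chance does this in about 1 group in 20. Of 158 groups of the named genes 25 were set apart, where 1 in 20 would be 7.9. Many of these genes were chosen by their p in the same libraries, and some, such as the haemoglobin genes, moved together. The figure of 7.9 is therefore not what chance would give here. No explanation was tested.

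HFD female 6 was far above the other HFD females in Ttr (2402 CPM), Enpp2 (1127 CPM), F5 (27.7 CPM) and Slc4a5 (19.7 CPM), members of the choroid plexus list apart from Enpp2, a myelin list gene. HFD female 2 stood out in Bpifb4 (26.2 CPM), HFD female 5 in Gpnmb (13.1 CPM) and HFD female 3 in Zfp638 (158.6 CPM).

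Among ND females, ND female 1 was highest in Rn18s (45970 CPM) and Rn7sk (82.7 CPM). ND female 5 was highest in the haemoglobin genes Hba-a1 (134.6 CPM), Hbb-b1 (65.2 CPM), Hba-a2 (64.3 CPM) and Hbb-bs (41.7 CPM). ND female 7 was highest in Chgb (875.8 CPM), Reln (168.4 CPM), Nsdhl (48.0 CPM), the hypothalamic peptide gene Avp (27.1 CPM) and Aspg (10.1 CPM). ND female 4 was highest in Enpp2 (406.7 CPM) and Hapln4 (218.1 CPM) and lowest in Sox11 (7.17 CPM). ND female 3 was highest in Mvk (27.8 CPM), ND female 6 highest in Vcan (27.5 CPM) and Bpifb4 (1.25 CPM) and lowest in Zfp638 (102.2 CPM).

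The diet difference itself differed between the Csl classes for 2 genes past an adjusted p of 0.05 in edgeR. Csl, which defines the classes, had a log2 difference of differences of -2.62 (low minus high class). Avp had -8.49, on levels of at most 2.11 CPM in HFD females and on 27.1 CPM in ND female 7.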

How the results depend on the processing

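The count of genes called between the diets, 0 in the main test, was 0 with limma voom, RLE factors, no filter, females alone, APP/E3 females alone and the libraries low in Csl reads. DESeq2 called 7, the libraries high in Csl reads alone 6, and the fit without the Csl term 4, of which 5, 5 and 3 were list members tested with all libraries. Leaving out each library gave 0 to 1, the 1 being Rn18s without ND female 3, 5 or 7. Without HFD female 6 and ND female 5, without ND females 1 and 4, or without all 4, settings chosen after seeing the data, it was 0. Both interactions gave 0 in every setting run. Log2 differences that turned over are these, and the cause was not tested. In the low class they were 0.0043 for Mvk, -0.043 for Gpc5, -0.30 for C3 (0.68 in all libraries), -0.32 for Enpp2, -0.66 for Ttr and 0.016 for Prnp. In the high class they were 0.16 for Gpnmb, 1.82 for Avp and -0.91 for Bpifb4. With each library left out, Gpnmb ran from -0.83 to 0.024 (positive without ND female 7), Avp from -3.67 to 1.32 (positive without ND female 7) and Enpp2 from -0.15 to 0.80 (negative without HFD female 6). Without HFD female 6 and ND female 5 they were -0.15 for Enpp2 and -0.10 for Ttr. Without ND females 1 and 4 Rn7sk was 0.23, and without all 4 it was 0.16. Prnp was 0.014 without the Csl term. Without ND female 7, 1311 genes had an unadjusted p under 0.05, against 884 in all libraries. No paired analysis was possible because replicate numbers follow deposit order and pair nothing. The libraries, 7 to 8 a group at 7.02 to 12.2 M counts, limit the precision, and genes near the floor of 0.246 to 0.427 CPM are not resolved.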
